A study of Mus musculus with 4 samples.

Results

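The Hedgehog pathway was followed here through 10 genes on dual-color whole mouse genome arrays of the colon, namely the ligands Ihh and Shh, the receptor Ptch1, the ligand-binding inhibitor Hhip, the transducer Smo, the transcription factors Gli1, Gli2 and Gli3, and the stromal forkhead factors Foxf1 and Foxl1. Their probes were found by the gene name that the array files give to each probe. Of these 10 genes, 9 had at least 1 probe among the 27343 gene names on the array, with 16 probes between them. No probe carried the name Foxl1, so this gene was not analysed here.

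In the gut, Hedgehog proteins are made by the epithelium and act on the mesenchyme below it. A ligand that binds Ptch1 relieves the block that Ptch1 keeps on Smo, Smo then signals at the primary cilium, and Gli2 and Gli3 switch from repressing to activating target genes. Ptch1, Hhip and Gli1 are themselves targets and serve as readouts of the pathway, while Foxf1 and Foxl1 mark the mesenchyme that receives the signal.

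RNA of 2 kinds of material was hybridised. The first was RNA from the colon of male C57BL/6 mice aged 6 to 8 weeks, taken 2 weeks after tamoxifen (4 mg per 25 g body weight), in which Myh11CreErt2/Rspo3 fl/fl mice (Rspo3 KO) were set against Myh11CreErt2/Rspo3+/+ littermates (control). Both genotypes carry the Myh11-driven Cre and received tamoxifen, and cells that do not use the Myh11 promoter keep Rspo3. Each of 2 arrays compared 1 KO mouse with 1 control mouse, with the dyes in opposite orientation, so there were 2 mouse pairs. Mouse pair and dye orientation cannot be told apart. The labels name distal colon where the methods name colon, and the tissue held the epithelium and the wall together. The second material was colon epithelial cells of Axin2CreErt2/Rosa26-tdTomato mice of the C57BL/6 strain, with the same sex, age range and tamoxifen dose. The cells were sorted 24 h after tamoxifen on ESA, an epithelial surface protein, and DAPI. This gave cells with tdTomato (Axin2+, which had used the Axin2 promoter) and without it (Axin2-). Cells of 3 mice were pooled, and the same pools were run on 2 arrays with the dyes swapped, which is 1 replicate with no test. The tissue and the sorted cells lay on different slides, so slide and material cannot be told apart.

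The labels were checked on single genes first. Axin2, the Wnt feedback gene that drives the sorting reporter, was higher in Axin2+ cells by 1.35 and 1.30 on the log2 scale on the 2 arrays. Of 2 Rspo3 probes, 1 was well above background only on the second KO array, where its ratio of KO over control was 0.17, and the place of these probes relative to the deleted part was not known, so they check nothing. Lgr5, a Wnt target of crypt base stem cells, was well above background with 1 of its 2 probes in both control channels and in neither KO channel, at least 3.84-fold higher in the control mice (log2 ratios of KO over control -1.28 and -2.61, adjusted p = 0.11 with limma). The bound sets the control level against the lowest signal well above background in each KO channel, or the probe's own level where that was higher. In the tissue, the log2 ratios of the 2 mouse pairs had a Pearson correlation of 0.03 and a Spearman correlation of -0.12 over 15382 genes, which are not independent replicates, and 44.2% of the genes had the same direction in both pairs. In the sorted cells, 82.7% of 15880 genes did. Between 53.1% and 60.3% of the spots were well above background in a channel, meaning that the scanner software found the signal clearly over the local background.

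Several members had probes that did not read alike, so the probes with which the results were made are shown before the values. The first 30 of the 60 bases of each probe are printed 5' to 3' for the 3 members whose probes disagreed and had a signal in both materials, all in lower case since no base was singled out.
Ihh, A_51_P479444: gcgattcttcacacgcattccatctgtctt
Ihh, A_52_P403398: gctaggggccagagtgtgtctagacatcag
Ptch1, A_51_P127435: ggggtatttgaggatcctcatgtgcctttt
Ptch1, A_52_P598605: catttggatgttttaatttgtaaaagaaaa
Smo, A_51_P258766: aatgtctagtcattttcatagtgccccaca
Smo, A_52_P444864: gtgggaggctacttcctcatcacaggggtc
Smo, A_51_P392665: tatagaagatataagaatggacatacagag

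The positions listed in the array files are on mm9. For Ihh, A_51_P479444 lies at chr1:74992348-74992407 on the minus strand, nearest the 3' end of its probes, is listed against a RefSeq transcript of the gene and was printed 10 times on each array. The other Ihh probe, A_52_P403398, lies upstream of it at chr1:74994421-74994480 and is listed against cDNA clones with no RefSeq transcript. For Ptch1, A_51_P127435 (chr13:63612907-63612966, minus strand, 10 spots) is listed against a RefSeq transcript, and A_52_P598605 (chr13:63610298-63610357) lies nearer the 3' end, has a GC content of 21.7% over its 60 bases, the lowest of the 16 probes, and is listed against cDNA clones alone. The 3 Smo probes follow the gene on the plus strand. A_51_P392665 (chr6:29687915-29687974) is the most upstream and has no RefSeq transcript listed, A_52_P444864 has a RefSeq transcript and a listed span of 1234 bases (chr6:29705582-29706815) for its 60 bases, so that it crosses an intron, and A_51_P258766 (chr6:29711225-29711284) is the most downstream and is listed against the same transcript. No annotation of mm9 was used here, so exons and UTRs are not given.

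The members fell into 3 patterns of detection. Of the 9 genes with a probe, 4 (Hhip, Gli2, Gli3 and Foxf1) were well above background in the tissue and in none of the 4 channels of sorted epithelium, 3 (Ihh, Ptch1 and Smo) had a signal in both, and 2 (Shh and Gli1) had it in neither. Of 27132 genes with a level on every array, 7.56% had a signal in the tissue and in no sorted channel by their best probe, and the 4 of 9 members were not tested against that share. The ligand Ihh was thus read in the epithelial cells, while the inhibitor, the pair of Gli factors and the mesenchymal factor were read only where the wall was present.

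**Figure D1:**
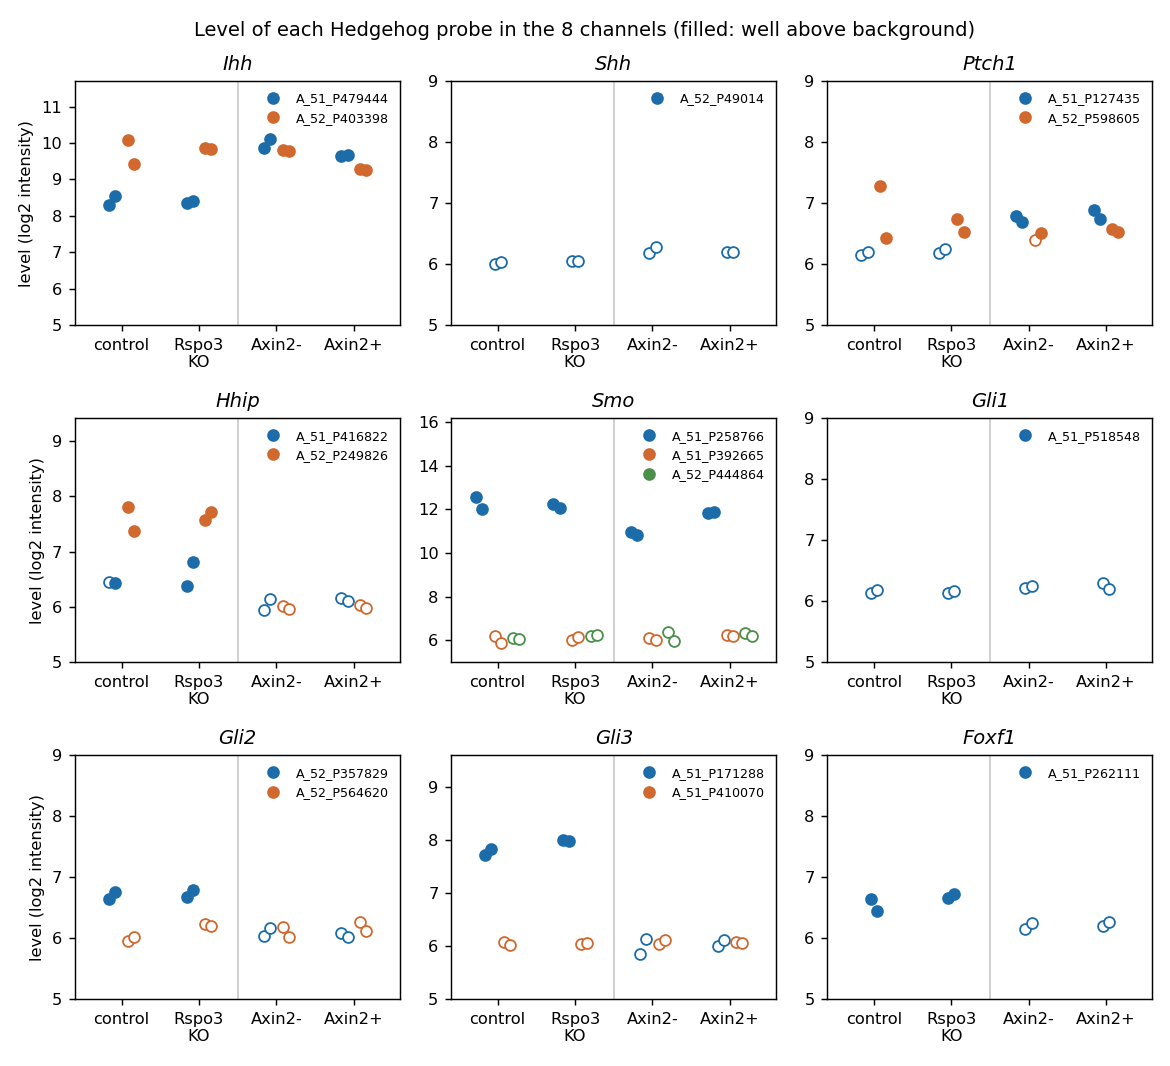
Level of each of the 16 probes of 9 Hedgehog genes, as normalised log2 intensity, in the 8 channels of the 4 arrays. Each point is 1 channel, colors separate the probes of a gene, filled points are well above background, open points are not, and the grey line separates tissue (left) from sorted cells (right), which were on different slides. Hhip, Gli2, Gli3 and Foxf1 have filled points only on the left.

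Among the ligands, Ihh was well above background with both probes in all 8 channels. With the RefSeq-listed probe A_51_P479444, the level (normalised log2 intensity) was 8.30 and 8.55 in the control mice, 8.36 and 8.41 in the KO mice, 9.87 and 10.10 in the Axin2- cells, and 9.65 and 9.68 in the Axin2+ cells. All 4 sorted channels lay above all 4 tissue channels. With A_52_P403398 the levels were 10.08 and 9.42 in the control mice, 9.87 and 9.84 in the KO mice, 9.81 and 9.79 in the Axin2- cells and 9.28 and 9.25 in the Axin2+ cells. With this probe tissue and sorted cells overlapped, so the higher reading in sorted epithelium held for 1 of the 2 Ihh probes. Shh, the second ligand, was printed 10 times and was not well above background in any of the 8 channels.

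At the receptor step, the 2 Ptch1 probes differed in where they had a signal. A_51_P127435 was well above background in all 4 sorted channels, at 6.79 and 6.68 in Axin2- cells and 6.88 and 6.73 in Axin2+ cells, and in none of the 4 tissue channels. A_52_P598605 was well above background in all 4 tissue channels and in 3 of the 4 sorted ones. Its level was 7.27 and 6.43 in the control mice and 6.74 and 6.53 in the KO mice, so the control mouse of the first pair stood above the other 3 tissue channels. Which transcripts each Ptch1 probe reports was not tested, and its place in the epithelium or the stroma cannot be read from these probes.

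Hhip, the membrane protein that binds Hedgehog ligands and keeps them from Ptch1, was read only in the tissue. Its probe A_52_P249826 (chr8:82496214-82496273) had levels of 7.81 and 7.37 in the control mice and 7.58 and 7.71 in the KO mice, against 5.96 to 6.04 in the 4 sorted channels, none of which was well above background. The other Hhip probe, A_51_P416822, was well above background in 3 of the 4 tissue channels and in 0 of the 4 sorted ones, so both Hhip probes had the same order of materials.

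Gli3 and Gli2, the transcription factors at the end of the relay, were read in the tissue only. The Gli3 probe A_51_P171288 (chr13:15821502-15821561) stood at 7.71 and 7.84 in the control mice and 8.001 and 7.98 in the KO mice, and at 5.85 to 6.14 in the sorted cells. Gli2, read with A_52_P357829 (chr1:120731255-120731314), was at 6.65 and 6.75 in the control mice and 6.68 and 6.79 in the KO mice, against 6.02 to 6.17 in the sorted cells. For both genes the second probe, which lies further from the 3' end, stayed at background in all 8 channels. Gli1, which is switched on by the pathway itself, did not rise well above background in any of the 8 channels over 10 spots on each array, so its change could not be read in either comparison. Foxf1, a forkhead factor of the gut mesenchyme, was just above background in the tissue, at 6.65 and 6.45 in the control mice and 6.66 and 6.72 in the KO mice, and was at 6.15 to 6.26 in the sorted cells.

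Smo, the membrane protein that passes the signal into the cell, was bright with 1 of its 3 probes only. A_51_P258766 was well above background in all 8 channels, with levels of 12.58 and 12.04 in the control mice, 12.24 and 12.09 in the KO mice, 10.95 and 10.82 in the Axin2- cells and 11.83 and 11.89 in the Axin2+ cells. The junction-spanning probe A_52_P444864 and the upstream probe A_51_P392665 were not well above background in any of the 8 channels. The Smo values below rest on A_51_P258766 alone, and whether it reports Smo RNA was not tested.

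The materials were checked against marker genes of each cell type. Of 15 genes of the subepithelial mesenchyme that surrounds the crypts, all 15 were well above background in every tissue channel. Among them 10, such as Pdgfra, Foxf2, Bmp4 and Bmp5, were so in no sorted channel. The other 5, Bmp7, F3, Wnt5a, Sox6 and Osr1, were well above background in all 4 sorted channels. Bmp7 and F3 were the brightest of the list on average over all 4 arrays. In the tissue Foxf2 was above both, at 10.15 to 10.4, against 9.50 to 10.14 for Bmp7 and 9.27 to 10.10 for F3. Of 11 fibroblast genes 10 were well above background in every tissue channel, and 6 were so in no sorted channel, among them the defining marker Pdgfra, while Col1a2, Dcn and Vim, the brightest on average over all 4 arrays, had a signal in all 4 sorted channels. That average favors genes with a signal in both materials, and Col1a1, at 14.02 to 14.6 in the tissue, was well above background in no sorted channel. The summed fibroblast level, as log2 intensity, was 16.6 to 17.0 in the tissue and 10.05 to 10.4 in the sorted cells. Smooth muscle genes (brightest Acta2, Actg2 and Synm), genes of enteric neurons and glia (Uchl1, S100b and Elavl4) and endothelial genes (Vwf, Lyve1 and Cldn5) were not well above background in any sorted channel for 5 of 9, 5 of 9 and 4 of 7. Against that pattern, Acta2 read 12.90 to 13.46 in the 4 sorted channels and 12.01 to 12.88 in the tissue, and Actg2 read 10.72 to 11.05 and 12.11 to 12.80. Vwf and Lyve1 were well above background in all 4 sorted channels, Uchl1 in 3, and S100b and Cldn5 in 1 each. Synm and Elavl4 were so in none. The part of such RNA in the sorted pools' values was not tested. Of 9 immune genes (brightest Cd74, Adgre1 and Ptprc), 4 were well above background in all sorted channels. All 10 epithelial genes were read in all sorted channels and 6 in all tissue channels, with Krt8, Vil1 and Epcam the brightest of these 6. The other 4, Krt18, Krt19, Krt20 and Cldn7, were left out of the tissue because every spot was marked as an outlier on at least 1 array, and they were not ranked.

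**Figure D2:**
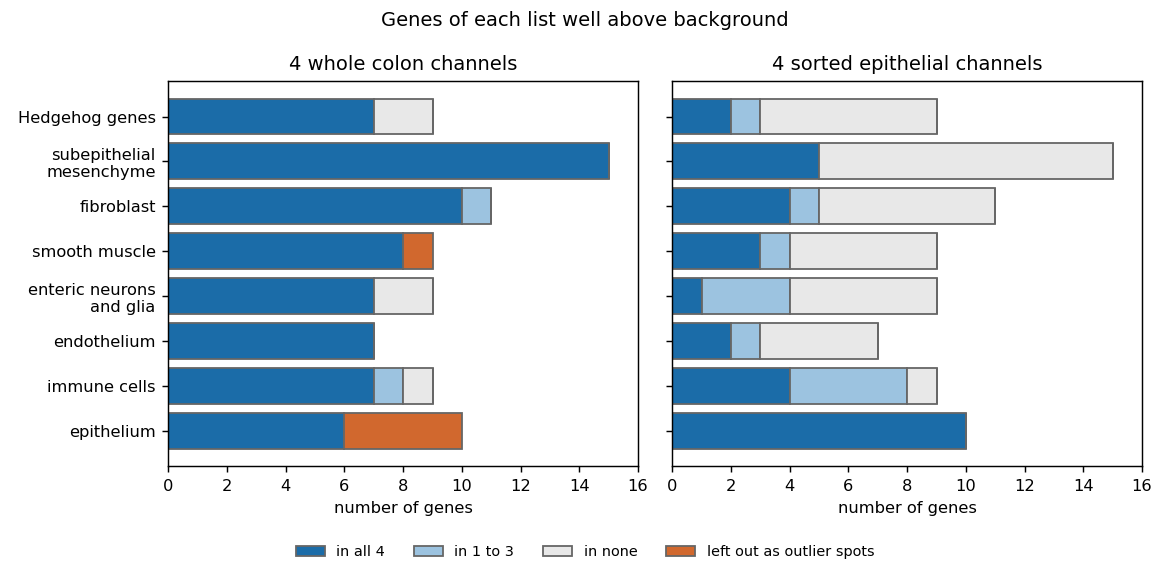
Number of genes of each list that were well above background in all 4, 1 to 3, or none of the channels of whole colon (left) and of sorted epithelium (right), with the brightest probe per gene, and in orange the genes whose spots were left out as outliers. For Hedgehog genes the count in all channels is 7 of 9 in tissue and 2 of 9 in sorted cells, and for the subepithelial mesenchyme it is 15 of 15 and 5 of 15.

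The study set Rspo3 KO against control colon to see how the tissue's transcripts respond when Rspo3, a secreted enhancer of Wnt signalling, is deleted from Myh11-expressing stromal cells. For the Hedgehog genes, no change passed the test or the size threshold in either direction. Of the 9 genes with a probe, 7 were measured, meaning that each array had a signal well above background for the brightest probe in 1 channel or both. With limma, which tested the 2 ratios against 0 with Benjamini-Hochberg adjustment over all genes, 0 of the 7 were called, where 0.234% of all 15382 genes were called, and 0 of 7 had an unadjusted p below 0.05. By size, 0 of 7 had a mean ratio beyond 1.5-fold and pairs that pointed one way, where 4.33% of all genes did. The adjusted p was 0.99975 for each of the 7 members. The p-values draw on the spread between these 2 mouse pairs. Through 6.66 prior degrees of freedom they draw more on the spread common to all genes. The pairs also differed in dye orientation, so in their spread mouse and dye cannot be told apart. In bulk RNA of this kind, fewer cells of a type and less RNA per cell cannot be told apart.

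**Figure D3:**
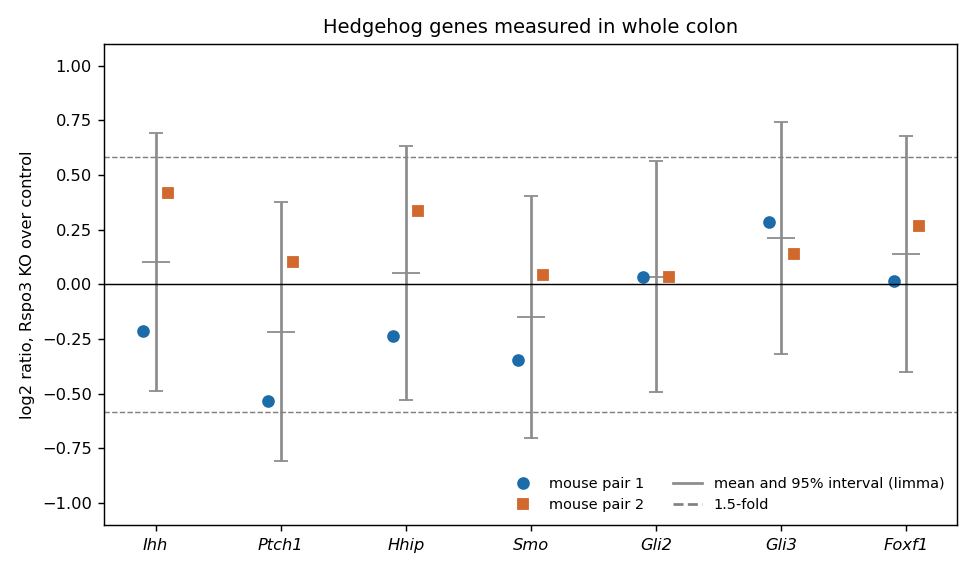
Log2 ratio of Rspo3 KO over control for the 7 Hedgehog genes measured in whole colon. Circles and squares are the 2 mouse pairs, the grey bar is the mean with its 95% interval from limma, and the dashed lines mark 1.5-fold. Every interval includes 0, and Ihh, Ptch1, Hhip and Smo have points on both sides of it.

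The ligand Ihh had log2 ratios of -0.21 and 0.42 in the 2 pairs with its brightest probe (mean 0.10, SD 0.45, n = 2), so the pairs pointed opposite ways. The RefSeq-listed Ihh probe gave 0.06 and -0.14, with an SD over its 10 spots of 0.06 and 0.05. The spots of an array thus differed little, and the direction in each pair was the reverse of that of the other probe. No direction of Ihh can be read from these 2 pairs, and the 95% interval of the brightest probe ran from -0.49 to 0.69.

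Ptch1 had ratios of -0.53 and 0.10 (mean -0.22, SD 0.45), Smo had -0.34 and 0.04 (mean -0.15, SD 0.28), and Hhip had -0.23 and 0.34 (mean 0.05, SD 0.40). In each of these 3 genes the second pair lay above the first and the pairs differed in direction. The Ptch1 value moved with the processing, and the cause was not tested. With the log ratios of the scanner software it was -1.90 and 0.41 (mean -0.74, adjusted p = 0.99985 with limma), and without background correction the mean was -0.50, and with all spots in the background fit it turned to 0.0246. The second Hhip probe gave -0.07 and 0.38, again with opposite directions.

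Gli3, Gli2 and Foxf1, the members read in the tissue alone beside Hhip, had ratios above 0 in both pairs as processed here, by amounts that did not pass the test. The direction did not hold in single pairs under every setting. With median centring Gli3 was at 0.79 and -0.31 and Gli2 at 0.06 and -0.07, and with the scanner software's ratios Gli2 was at -0.11 and 0.16. Gli3 had ratios of 0.29 and 0.14 (mean 0.21, SD 0.11), a fold of 1.16 with a 95% interval of the log2 ratio from -0.32 to 0.74, and its mean was 0.09 with all spots in the background fit. Foxf1 had 0.01 and 0.27 (mean 0.14, SD 0.18, interval -0.40 to 0.68), and its mean was 0.36 with the log ratios of the scanner software. Gli2 had 0.03 and 0.04 (mean 0.03, interval -0.49 to 0.56). The intervals of the other 6 members reach past 1.5-fold on at least 1 side. That of Gli2 does not, but its level lay near the floor of the channels, where the offset of 50 shrinks a ratio, so the interval sets no limit on the change of its RNA.

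The medians of the stromal gene lists also lay above 0 in the KO tissue, as did those of most other lists. In the subepithelial mesenchyme list, 15 of 15 genes were measured, 7 were higher in both pairs, 2 were lower in both and 6 differed in direction, with a median log2 ratio of 0.17 where the median over all genes was -0.01. The median was -0.01 in the first pair and 0.49 in the second. One gene, Tcf21, a transcription factor of fibroblast precursors, was past 1.5-fold with 0.64 and 0.65 (adjusted p = 0.82 with limma). Bmp4, a known target of Hedgehog signalling in gut mesenchyme, had -0.17 and 0.69, and Foxf2, the close relative of Foxf1, had 0.15 and 0.13. Of the fibroblast markers 5 of 11 were higher and 0 lower in both pairs (median 0.29), and of the smooth muscle markers 5 of 8 and 0 of 8 (median 0.24). Over all genes, 44.2% had the same direction in both pairs, higher or lower. That share takes both directions together, so the counts of list genes higher in both pairs have no like share beside them. They are given as values and are no result about these lists. Other medians were 0.31 for co-receptors and receptor, 0.14 for enteric neurons and glia, 0.12 for endothelium and 0.09 for immune cells. The epithelium and primary cilium lists had -0.02 each. The summed fibroblast level was 16.6 and 16.7 in the control mice and 16.9 and 17.0 in the KO mice. The part of such a shift in the Gli3 and Foxf1 values was not tested.

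Upstream and downstream of the receptor, the further pathway genes did not pass 1.5-fold alike in the tissue either. This held for 7 measured genes of ligand making and release, 6 co-receptor and receptor genes, 12 genes of the relay inside the cell and 14 genes of the primary cilium, none of which limma called. Of the 6 co-receptor and receptor genes, 1 was higher in both pairs, 1 was lower in both and 4 differed in direction. Cdon, a co-receptor that helps ligand bind Ptch1, had 0.81 and -0.14, and Gas1, another, had -0.03 and 0.58. In the same list Gpc3 had 1.26 and -0.39, and Lrp2, well above background in 2 of the tissue channels, had 0.74 and 0.24. All 4 were named after their values were seen. In the marker lists limma called 1 epithelial gene, Cdx2 (2.33 and 1.91, adjusted p = 0.02), and 1 immune gene, the B cell gene Ms4a1 (-2.75 and -2.27, adjusted p = 0.01). Each call held under 4 of 8 alternatives and was lost under the others, where limma's adjusted p reached 0.67 for Cdx2 and 0.99959 for Ms4a1.

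The comparison of Axin2+ with Axin2- cells sets Wnt-responding epithelial cells of the crypt against the rest of the epithelium. As processed here, the ligand Ihh was lower in Axin2+ cells and Smo, read with 1 of its 3 probes, was higher, in either dye orientation. Ptch1 differed little. With median centring the 2 arrays differed in direction for both Ihh and Smo. Of the 9 genes with a probe 3 were measured, and 1 of them, Smo, was past 1.5-fold and higher, where 7.87% of all 15880 genes were past 1.5-fold and higher. None of the 3 was past 1.5-fold and lower, where 6.92% of all genes were. With 3 genes measured in 1 pool, these counts say nothing about the pathway as a whole.

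**Figure D4:**
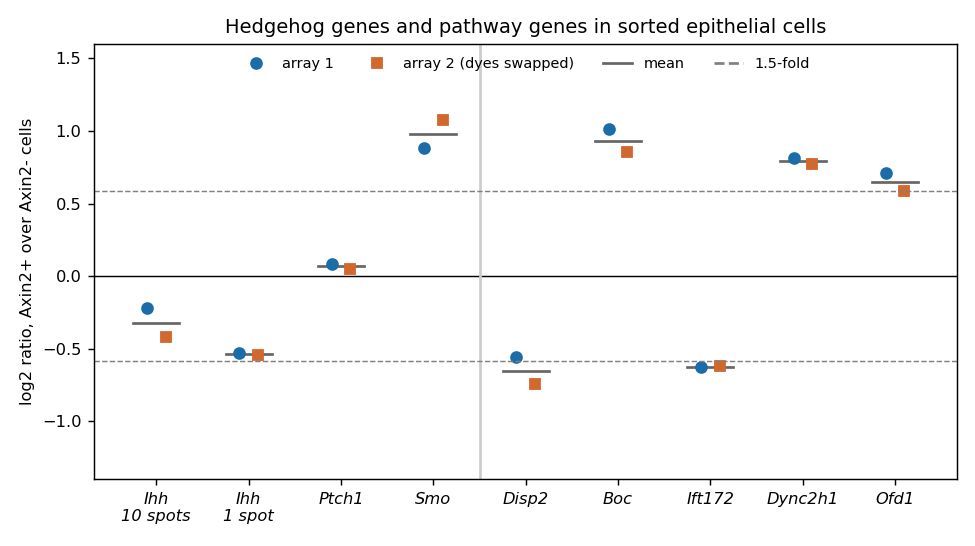
Log2 ratio of Axin2+ over Axin2- cells on each of the 2 dye-swapped arrays of the same pools, with the mean as a bar and 1.5-fold as dashed lines. Left of the grey line are the measured Hedgehog genes, with both Ihh probes, and right of it the genes of the further pathway lists past 1.5-fold alike. Both Ihh probes lie below 0 and Smo lies near 1.

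Ihh had log2 ratios of -0.22 and -0.42 with the RefSeq-listed probe (mean -0.32, a fold of 1.25 lower). The SD over its 10 spots was 0.04 on the first array and 0.05 on the second, which is the error of printing and scanning and not of the animals. The second Ihh probe gave -0.53 and -0.54 (mean -0.54). All 4 readings of Ihh were thus below 0, in 2 probes and both dye orientations, and neither probe mean reached 1.5-fold. Of the 10 epithelial markers, 3 were past 1.5-fold lower in Axin2+ cells and 0 past 1.5-fold higher, and 3 were above 0 on both arrays. Those past 1.5-fold were Krt8 (-0.64 and -1.03), Krt19 (-0.58 and -0.77) and Krt20 (-3.01 and -2.77), the last a marker of mature surface cells. A further keratin, Krt18, went the other way (0.45 and 0.33).

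Smo had ratios of 0.88 and 1.07 (mean 0.98, a fold of 1.97), which rest on the single bright probe. The other Smo probes, neither of them well above background, gave 0.12 and 0.18 for A_51_P392665 and -0.02 and 0.25 for A_52_P444864. The Smo and Ihh readings also depended on the dye correction within an array. With median centring in place of loess, Smo was at 1.93 on the first array and -0.26 on the second (mean 0.84), and Ihh was at 0.82 and -1.50 (mean -0.34). The means over the dye swap kept their direction while the single arrays did not. With the scanner software's own correction, Smo was at 0.88 and 1.12 and Ihh at -0.31 and -0.44.

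**Figure D5:**
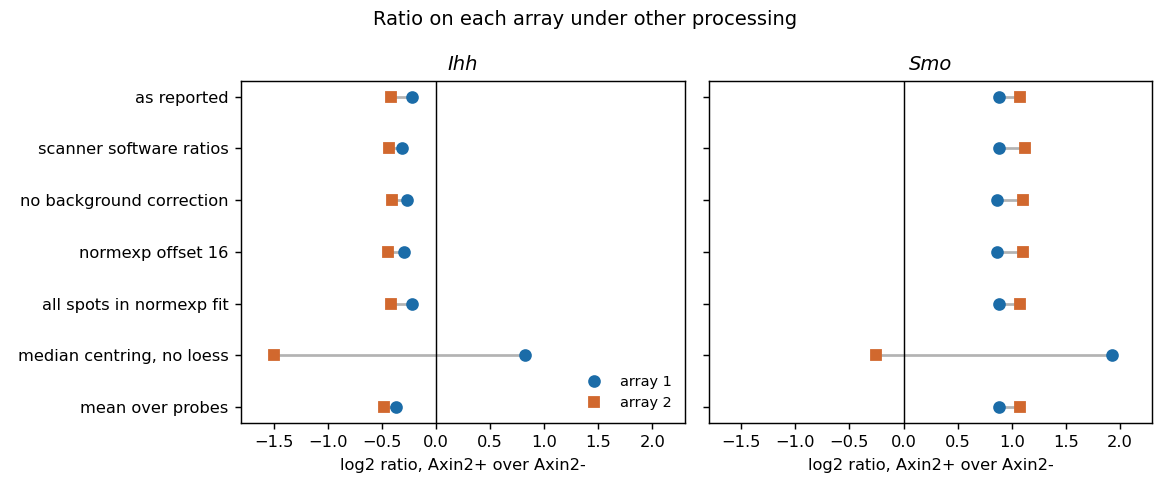
Log2 ratio of Axin2+ over Axin2- cells for Ihh (left) and Smo (right) on array 1 (circles) and array 2 (squares) under the reported and 6 other ways of processing. The arrays lie close together except with median centring, where they stand on opposite sides of 0 for both genes. Keeping all spots in the fit could not move either gene, as these arrays had 0 background outlier spots. The mean over probes is the reported value for Smo, whose other probes did not pass the filter.

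Ptch1 had ratios of 0.09 and 0.05 with the probe that the sorted cells read, with an SD over 10 spots of 0.07 and 0.08 on the 2 arrays. The second Ptch1 probe gave 0.18 and 0.01. Hhip, Gli2, Gli3, Foxf1, Shh and Gli1 were not well above background in either population, so no fold is given for them.

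Among the further pathway genes in the sorted cells, 5 of 33 measured in 4 lists were past 1.5-fold alike on both arrays. This is 15.2%, close to the 14.8% over all genes, so the count is no result about the pathway, and the genes are given as values. Boc, a co-receptor that presents ligand to Ptch1, was higher in Axin2+ cells (1.01 and 0.85) and was 1 of 3 co-receptor and receptor genes measured. Disp2, a relative of the protein that releases lipid-bearing Hedgehog from the cell, was lower (-0.56 and -0.74), as 1 of 5 genes of ligand making and release. Of 12 measured cilium genes, the motor subunit Dync2h1 (0.82 and 0.77) and the basal body gene Ofd1 (0.71 and 0.59) were higher, and the transport gene Ift172 was lower (-0.63 and -0.62). Of 13 genes of the relay, among them Sufu, which holds Gli proteins back, none was past 1.5-fold, and Sufu had 0.23 and 0.20. Of the subepithelial mesenchyme list 5 of 15 genes were measured in sorted cells and 0 were past 1.5-fold. Among fibroblast markers Vim was lower in Axin2+ cells (-1.01 and -0.91), and the immune marker Ptprc was at -0.65 and -0.50.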

How the data were processed

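Per the labels, RNA was amplified with the Quick-Amp kit and hybridised on Agilent 4x44K arrays. The authors scanned them with Agilent Feature Extraction and deposited, per spot, the mean and background intensity of each dye and a log10 ratio of Cy5 over Cy3; the series' table holds the same log10 ratio as deposited. Probe positions are on mm9. Labels name Trizol for all RNA, and the methods name a column kit for the tissue.

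Intensities were background-corrected with limma (3.58.1, R 4.3.3) by normexp (offset 50), with 66 and 6 background outlier spots on the 2 KO arrays kept out of the fit, and normalised by loess. Outlier spots (124 to 467 per array) were left out, spots averaged per probe, and ratios turned to Rspo3 KO over control and Axin2+ over Axin2-. A gene took its brightest probe and was measured where each array called it well above background in 1 channel or both. Levels are per channel after Aquantile. KO ratios were tested against 0 with lmFit and eBayes (6.66 prior degrees of freedom), and this step was tested on simulated data. Of 41174 probes, 27668 were named by RefSeq accession (GRCm38.p6 table), 5589 by symbol, 471 by synonym and 7446 by the file. Members and lists were chosen with earlier results of these data known. Every member is named with all probes; of pathway lists, the genes past 1.5-fold alike on both arrays (at most 5 per list); of marker lists, the 3 brightest, and others only as said. Depth has no counterpart on arrays; their number limits the precision.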

Additional observations from a re-analysis of the deposited data

How the results depend on the processing

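None of the 7 members measured in Rspo3 KO tissue was called by limma or past 1.5-fold alike under any alternative that gave a count. The lowest adjusted p of a member with limma was 0.80 (Ptch1, 4 arrays with a dye term). That fit also used the Axin2 arrays, which hold the same pools, and of the members it covered Ihh, Ptch1 and Smo only. Over all genes, the 36 limma calls became 129 with the scanner software's log ratios and with the series' table, 70 without background correction, 124 with an offset of 16, 1 with all spots in the background fit, 8 with median centring, 0 without the filter on dim probes, 3 with the mean over probes and 209 with 4 arrays and a dye term. The 666 genes past 1.5-fold alike became 1477 with the software's ratios or the series' table, 361 with all spots in the fit and 183 at 2-fold, and with 1 pair left out the count ran from 1555 to 2409. In Axin2 cells the 2348 genes became 5183 with the software's ratios or the series' table, 1090 with median centring and 671 at 2-fold, and the single member past 1.5-fold, Smo, became 0 with median centring and at 2-fold. With 1 array left out the counts ran from 2384 to 2536.

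Of 116 single-gene values, 6 turned direction. Ptch1 in KO tissue was 0.0246 with all spots in the background fit and Gli2 was -0.0016 with median centring. Leaving out 1 pair at a time, Ptch1 ran from -0.53 to 0.10 and Smo from -0.34 to 0.0450, turning without the first pair, and Ihh ran from -0.21 to 0.42 and Hhip from -0.23 to 0.34, turning without the second. Ihh stayed between -0.43 and -0.32 and Smo between 0.84 and 1.001 in Axin2 cells over 10 alternatives that kept both arrays. Several of these gave the reported means back unchanged and add nothing. They were the changed filters on dim probes, the dye term and the fit with all spots, as these arrays had 0 background outlier spots. For Smo the mean over probes did so too. The series' table repeated the software's ratios. With 1 array left out, Ihh ran from -0.42 to -0.22 and Smo from 0.88 to 1.07. The cause of these moves was not tested. The KO test was already paired by array, since each ratio sets 1 KO mouse against 1 control mouse. No further pairing was possible, and the Axin2 arrays hold the same pools. Signal over background limits the reading of Shh and Gli1 everywhere and of Hhip, Gli2, Gli3 and Foxf1 in sorted cells.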
